A study of Pseudotsuga menziesii with 26 samples.

Results

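Transcripts of Douglas-fir needles that were counted in every one of 26 seedlings were compared across 4 exposure atmospheres. A transcript belonged to the set if its identifier was numbered above 300, it had at least 10 counts in each of the 26 libraries, it never exceeded 1% of a library's counts, and it was not among the 200 with the highest mean level in Air Control. Of 173882 assembled transcripts, 93782 had a count in at least 1 library and 180 met the rule. The steps went from 340 transcripts with at least 10 counts in every library to 331 with identifiers above the limit, 311 after 20 were removed for exceeding 1%, and 180 after 131 of the most abundant Air Control transcripts were removed. The rule used counts from every library and levels in Air Control, so the members' minimum counts, and the absence of the most abundant Air Control transcripts, are fixed by the choice and are not results.

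Douglas-fir (Pseudotsuga menziesii) seedlings, siblings with 1 parent in common, were assigned at random to 1 of 4 atmospheres, with 7 plants in DE, 7 in DECe, 6 in DECe Gas Phase and 6 in Air Control. DE plants received emissions from burning diesel fuel, and DECe plants received emissions from diesel fuel that carried an engineered cerium oxide (CeO2) nanoparticle catalyst. DECe Gas Phase was the same cerium fuel exhaust after HEPA filtration, and Air Control was air passed through charcoal, Purafil and HEPA filters. Each atmosphere had 1 chamber of 984 L, was given for 6 hours a day on 5 days a week over 2 weeks, and alternated with filtered air in all chambers. All plants had 16 hours of light and 8 hours of dark at 280 µmol/s/m2, and were exposed in December, when needle growth was dormant. Needles grown in 2011 were sampled in 2012 from lateral stems, and polyadenylated RNA was sequenced. Since each atmosphere had a single chamber, chamber and atmosphere cannot be told apart, and p-values measure the spread between seedlings.

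Older conifer needles are the evergreen's standing photosynthetic tissue through winter. Gases of diesel exhaust enter needles mainly through the stomata, whereas particles settle on the needle surface, and a HEPA filter removes particles and lets gases pass. RNA sequencing divides a fixed number of reads among all transcripts of a sample, so a transcript's share falls when a few others take more of the reads. The files used here do not pair transcript identifiers with gene names, so the members are described by identifier, length and level, and their functions and the needle's marker genes were not examined. In needle RNA, fewer cells of a type and less RNA per cell cannot be told apart.

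The libraries differed in depth and composition. Totals ran from 2467403 to 60457187 counts, and 23 transcripts that exceeded 1% of counts in some library took 33.6 to 95.8% of a library. In 11 libraries, called narrow here, at most 879616 counts fell outside these 23 transcripts, whereas the 15 broad libraries had at least 5950200. DE had 6 narrow libraries among 7, DECe had 3 among 7, DECe Gas Phase had 2 among 6, and Air Control had none. This division was made after the data were seen, it moves with the DE group, and its part in the differences between groups cannot be told apart from exposure in DE.

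The 180 members differed widely in level and in spread. Their mean level in Air Control ran from 0.722 to 336 CPM, in counts per 1000000 counts of the library (CPM of all counts), with a median of 68.7, and their place by Air Control level from 203 to 20923 with a median of 963.5. Their summed counts over the 26 libraries ran from 1359 to 229431 with a median of 40334. The ratio of the highest to the lowest library, in CPM of all counts, ran from 5.55 to 12492 with a median of 31.4. Members were 346 to 7203 nt long with a median of 2153.5 nt, and 27 of them (15%) were under 1000 nt. Among 14287 other transcripts with a median count at least as high as the lowest member's, the median length was 2177 nt and 7.89% were under 1000 nt. Of the 200 highest in Air Control, 15% were under 1000 nt too, and of the 23 transcripts above 1%, 47.8% were. Identifiers in the files were numbered by falling length (Spearman rho -1 over 93782 transcripts), and the limit on identifiers kept the longest transcripts out of the set. Lengths are those implied by the deposited RPKM values, and the 1000-nt division was chosen after values were seen.

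Members near the minimum show what the threshold separates. Just inside were psme_t005820 (3412 nt) and psme_t039877 (1174 nt), each with 10 counts in DE replicate 4 and with medians of 3363 and 4647 counts over the 26 libraries. Just outside were psme_t123177 (428 nt), with 9 counts in DECe Gas Phase replicate 4 and a median of 1251, and psme_t063362 (760 nt), with 9 counts in DE replicate 4 and a median of 1237. The library with a member's lowest count was DE replicate 8 for 54 members, DE replicate 1 for 31, DE replicate 4 for 29 and DECe replicate 15 for 20. Membership was thus set mostly by shallow narrow libraries. After TMM scaling, 10 counts in a DE library corresponded to as much as 24.0 CPM, and 86 of the 180 members had an Air Control mean below that level. Those 86 had to lie above their Air Control mean in at least 1 DE library to be members.

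Together the members took a similar mean share of all counts in each atmosphere, though single libraries differed. They held 1.56 ± 0.344% of all counts in DE, 1.82 ± 0.255% in DECe, 1.48 ± 0.423% in DECe Gas Phase and 1.56 ± 0.497% in Air Control (SD over 7, 7, 6 and 6 libraries). The lowest share was 0.762% in Air Control replicate 14 and the highest 2.22% in DE replicate 5. Outside the 23 transcripts above 1%, the members' share was 22.7 ± 9.48% in DE, 10.3 ± 9.91% in DECe, 6.45 ± 6.73% in DECe Gas Phase and 3.18 ± 0.614% in Air Control (SD, n as above). The 6 narrow DE libraries had 17.1 to 31.4% on this denominator and DE replicate 5, the broad DE library, had 3.63%, within the 2.39 to 4.19% of Air Control.

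Behind the similar group means, the slice was made of different members. The 27 members under 1000 nt held 0.944 ± 0.408% of all counts in DE, 0.492 ± 0.538% in DECe, 0.247 ± 0.408% in DECe Gas Phase and 0.0763 ± 0.00987% in Air Control (SD over the libraries of each group). Within DE, 6 libraries had 0.970 to 1.35%, and DE replicate 5 had 0.0646%. In DECe the 3 narrow libraries had 0.812 to 1.32%, and the 4 broad ones 0.0716 to 0.0856%. In DECe Gas Phase only replicate 5 was high, at 1.08%, whereas the other narrow library, replicate 4, had 0.0514%. All 6 Air Control libraries had 0.0594 to 0.0884%. The summed share of short members was therefore high in 10 of the 11 narrow libraries of 3 atmospheres and low in all broad ones. Of the 27, 6 members held 0.853 to 1.22% of all counts in the narrow DE libraries, and so most of that share. The median level of the 27 overlapped between classes, at 9.29 to 57.5 CPM of all counts in narrow libraries and 7.49 to 27.8 in broad ones.

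The 153 longer members were lowest in DE and highest in Air Control by mean share. They held 0.614 ± 0.688% of all counts in DE, 1.32 ± 0.728% in DECe, 1.24 ± 0.610% in DECe Gas Phase and 1.48 ± 0.491% in Air Control (SD over the libraries of each group). DE replicate 5 had 2.16%, and the other DE libraries had 0.229 to 0.537%. The rule and the library class both bear on these shares, so no test is given.

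**Figure D1:**
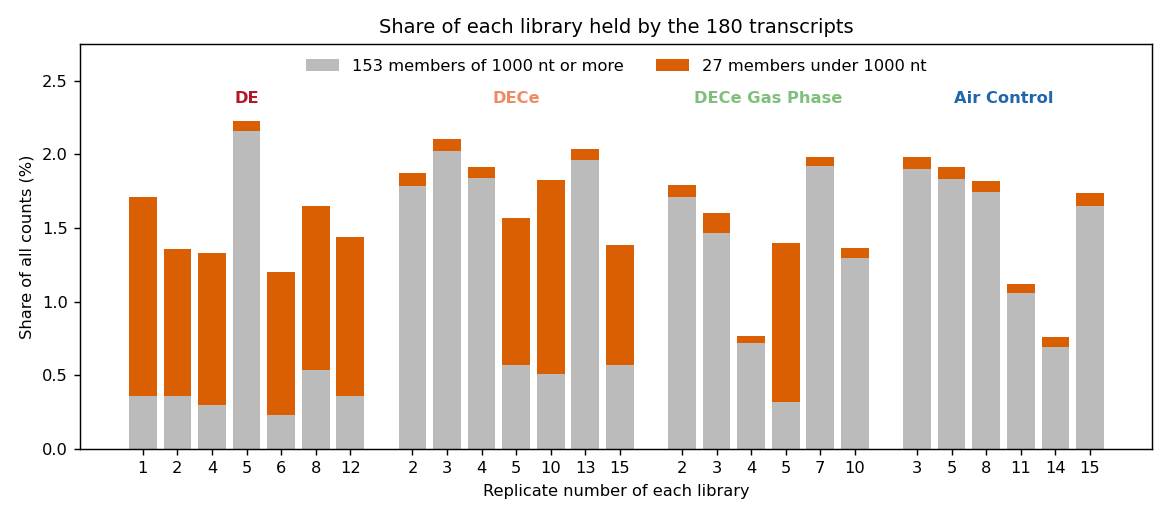
Share of all counts (%) held by the 180 transcripts in each library, as stacked bars for the 27 members under 1000 nt and the 153 of 1000 nt or more, with libraries grouped by atmosphere and named by replicate number. Short members make up most of the bar in 6 DE libraries, 3 DECe libraries and 1 DECe Gas Phase library, and a thin layer elsewhere.

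The profile of the 180 members separated the libraries by class before atmosphere. The first principal component of log2 CPM of all counts held 79.2% of the variance and placed all narrow libraries at lower scores than all broad ones. The second, with 6.7%, set DECe Gas Phase replicate 4 and Air Control replicate 14 apart from the rest. As a description over 180 transcripts of the same libraries, the median correlation of log2 CPM was 0.845 between narrow libraries of the same group and 0.741 between narrow libraries of different groups. It was 0.912 between broad libraries of the same group and 0.895 between broad libraries of different groups. Between a narrow and a broad library of the same group it was 0.0294, with a range of -0.360 to 0.480. Across groups the classes could be closer. The narrow DECe Gas Phase replicate 4 and the broad Air Control replicate 14 each correlated most with the other, at 0.855. In Air Control replicate 14 the 23 transcripts above 1% took 81.8% of counts. DE replicate 5 correlated most with Air Control replicate 15, at 0.910.

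**Figure D2:**
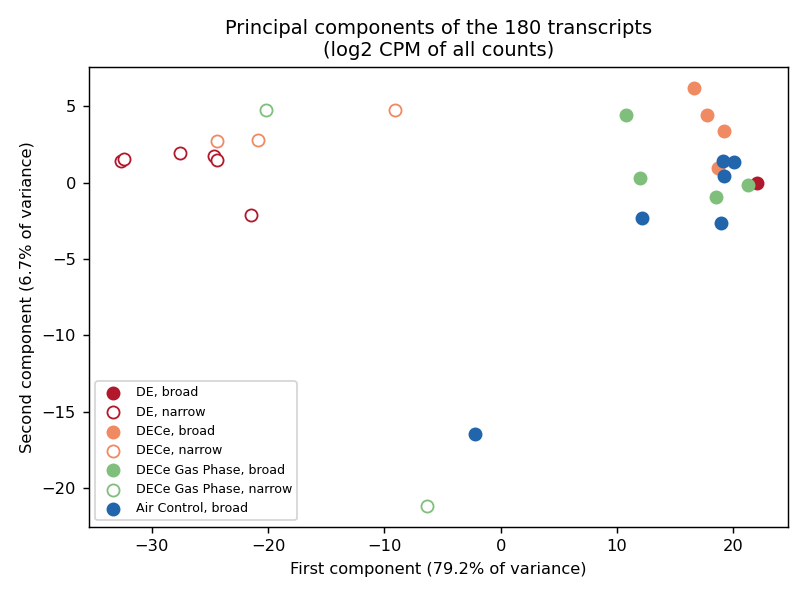
Scores of the 26 libraries on the first 2 principal components of the 180 transcripts (log2 CPM of all counts), coloured by atmosphere, with filled points for broad and open points for narrow libraries. The open points lie at lower first-component scores than the filled ones, the filled DE point has the highest first-component score of the 26, and 2 libraries lie low on the second component.

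Spread within groups followed the same division. The median SD of log2 CPM over members was 1.35 in DE, 1.46 in DECe, 1.35 in DECe Gas Phase and 0.963 in Air Control. Over the broad libraries alone, the members' median SD was 0.744, and that of 16306 other transcripts with at least 10 counts in each broad library was 0.841. The 2 steadiest members over the 26 libraries were psme_t006118 (3348 nt, SD 0.615 on the log2 scale) and psme_t007000 (3200 nt, SD 0.660). psme_t006118 had 2.22, 4.44 and 6.48 CPM of all counts in DE (lowest, median and highest), 1.69, 4.55 and 9.14 in DECe, 1.98, 4.10 and 4.69 in DECe Gas Phase, and 1.64, 4.68 and 7.21 in Air Control. Its ranges overlapped in all 4 groups. The 2 most variable members were psme_t144984 (377 nt, SD 4.59) and psme_t155540 (358 nt, SD 4.25).

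The member with the highest summed count was psme_t144984. It had 1.45, 3814 and 7624 CPM of all counts in DE (lowest, median and highest), 14.9, 74.5 and 7193 in DECe, 1.73, 31.5 and 1890 in DECe Gas Phase, and 0.610, 6.28 and 18.0 in Air Control. The 6 narrow DE libraries lay between 2010 and 7624 CPM, the 3 narrow DECe libraries between 2373 and 7193, and the narrow DECe Gas Phase replicates 5 and 4 at 1890 and 1.73 CPM. Broad libraries were far lower, with 1.45 CPM in DE replicate 5, 14.9 to 74.5 in DECe, 3.63 to 282 in DECe Gas Phase and 0.610 to 18.0 in Air Control. Next by summed count were psme_t011378 (2640 nt) and psme_t005820, whose levels ran the other way. psme_t011378 had a median of 30.8 CPM in DE (range 15.6 to 498), 447 in DECe (29.1 to 756), 408 in DECe Gas Phase (27.5 to 551) and 316 in Air Control (115 to 440). psme_t005820 had a median of 10.4 CPM in DE (range 1.73 to 628), 309 in DECe (16.8 to 704), 210 in DECe Gas Phase (33.8 to 504) and 326 in Air Control (44.5 to 551). In both, the highest DE value was DE replicate 5, which lay above the Air Control range.

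**Figure D3:**
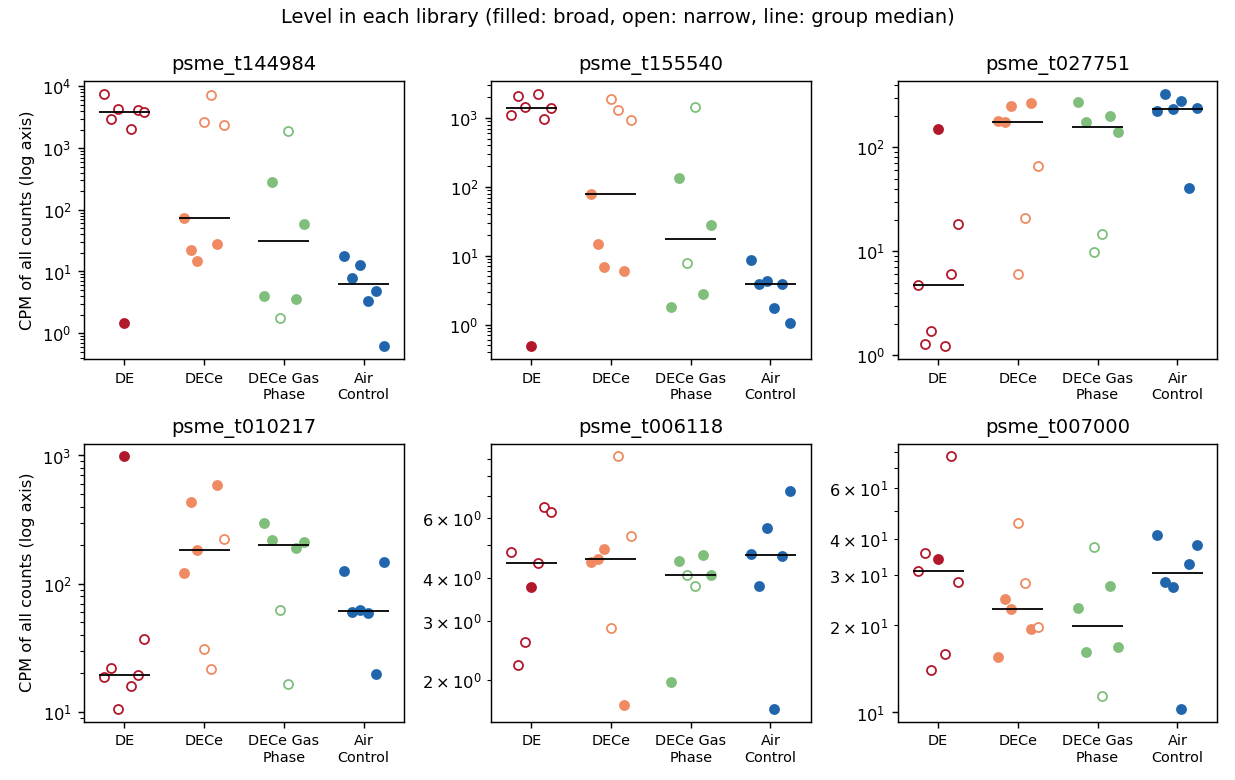
CPM of all counts (log axis) of 6 members in each library by atmosphere, with filled points for broad libraries, open points for narrow libraries and a line at the group median. psme_t144984 and psme_t155540 are at 922 CPM or more in all narrow libraries except DECe Gas Phase replicate 4, the medians of psme_t027751 are 4.79 CPM in DE and 235 CPM in Air Control, and psme_t010217 is highest in DE replicate 5, at 984 CPM.

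The comparison of DE with Air Control asks which of these transcripts differed under whole diesel exhaust. With TMM scaling, which assumes that most transcripts keep their level, edgeR placed 96 of 180 members higher and 1 lower in DE at an adjusted p under 0.05, where it called 4.26% of all 26942 tested transcripts higher and 4.13% lower. Since the rule used these libraries, nothing is read from the difference between those shares. The median log2 fold change was 2.20 over the members and -0.51 over all tested transcripts. The median log2 fold change of the 27 short members was 6.34, and 23 of them were called higher. The 153 longer ones had a median of 1.77, with 73 called higher and 1 lower. Over all tested transcripts, edgeR called 14.8% of the 4441 under 1000 nt higher and 2.18% of the 22501 longer ones. Their median log2 fold changes were close, at -0.49 under 1000 nt and -0.51 for the longer ones. The share called thus differed by length over all tested transcripts. The members' medians by length are not read as a result, since the rule bears on them. The minimum count for membership stood for up to 24.0 TMM-scaled CPM in a DE library. A member with an Air Control mean below that level on the same scale had to exceed its mean in some DE library. In CPM of all counts, the median Air Control level was 14.3 for short members and 85.7 for longer ones.

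The direction of most members differed between scalings. With library totals as the only scaling, edgeR called 6 members higher and 0 lower, where it called 2.42% of all tested transcripts higher and 3.29% lower. At an unadjusted p under 0.05, 30 members passed (16.7%), beside 29.8% of all tested transcripts. The median log2 fold change turned to -1.26 over the members, against -2.005 over all tested transcripts. Over the 4 scalings (TMM, RLE, library totals and the members' own totals), 31 members had a higher fitted level in DE under each, 8 had a lower one under each, and 141 changed sign. Of the 31, 20 were under 1000 nt, and of the 8, none was. TMM factors ran from 0.0614 to 0.351 in narrow DE libraries, against 4.36 in DE replicate 5 and 0.754 to 4.01 in Air Control.

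**Figure D4:**
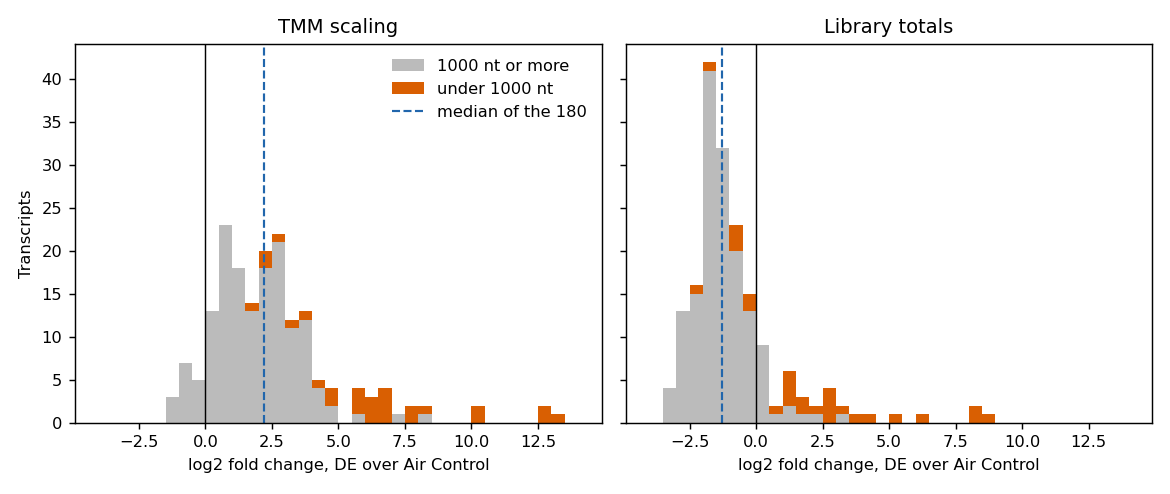
Histograms of the log2 fold change of DE over Air Control for the 180 transcripts with TMM scaling (left) and with library totals (right), stacked by length class, with the median as a dashed line. The median lies at 2.20 with TMM and at -1.26 with library totals, and short members form the right-hand tail in both panels.

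The 6 members called higher in DE with library totals were all short, at 358 to 567 nt, and 5 of them were also called with TMM. Summed, they held 0.853 to 1.22% of all counts in the narrow DE libraries and 0.00422% in DE replicate 5, against 0.00541 to 0.0104% in Air Control. They held 0.640 to 1.23% in the narrow DECe libraries, and 0.994 and 0.00824% in the narrow DECe Gas Phase replicates 5 and 4. psme_t144984 had a log2 fold change of 13.17 ± 3.24 with TMM (SE, edgeR adjusted p = 0.0158) and 8.82 ± 1.56 with library totals (edgeR adjusted p = 6.32e-05). psme_t155540 had 0.483, 1394 and 2260 CPM of all counts in DE (lowest, median and highest) and 1.05, 3.89 and 8.76 in Air Control. Its log2 fold change was 12.94 ± 3.22 with TMM (edgeR adjusted p = 0.0163) and 8.39 ± 1.57 with library totals (edgeR adjusted p = 1.28e-04). In both, 6 of 7 DE libraries lay above the whole Air Control range and DE replicate 5 did not. Among the broad libraries alone the log2 fold change was -3.13 for psme_t144984 and -3.91 for psme_t155540 (edgeR adjusted p = 0.722 and 0.695), with DE replicate 5 as the only DE library. Over the alternatives run, the adjusted p of psme_t144984 ran from 3.21e-16 to 0.722 and that of psme_t155540 from 4.97e-16 to 0.695.

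**Figure D5:**
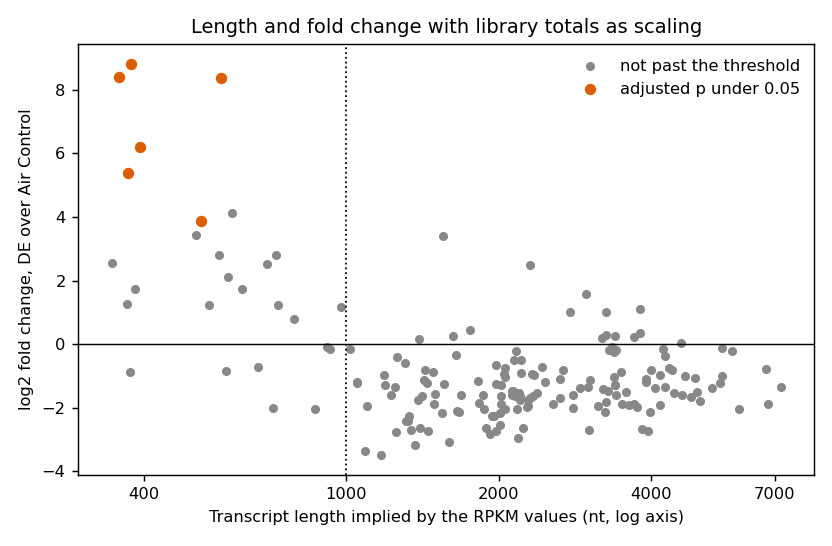
Log2 fold change of DE over Air Control with library totals as scaling for each of the 180 transcripts, against transcript length (nt, log axis), with the transcripts past an adjusted p of 0.05 in orange and the 1000-nt division dotted. The 6 orange points lie between 358 and 567 nt, and most longer members lie below 0.

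The only member called lower in DE with TMM was psme_t027751 (1596 nt). It had 1.22, 4.79 and 150 CPM of all counts in DE (lowest, median and highest) and 41.0, 235 and 327 in Air Control. On the TMM scale it had 16.0, 24.0 and 51.7 CPM in DE and 54.4, 60.5 and 140 in Air Control, so the groups did not overlap on that scale. With TMM the log2 fold change was -1.40 with an SE of 0.41 (edgeR adjusted p = 0.0249) and with library totals -3.08 with an SE of 1.21 (edgeR adjusted p = 0.104). Over the alternatives run, its adjusted p ran from 5.54e-06 to 0.652, and it missed the threshold in 13 of 27. Its lowest count in DE was 10, the minimum for membership.

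psme_t010217 (2762 nt) was the 1 member called when DE replicate 5 was set against the Air Control libraries, which are all broad too. It had 984 CPM of all counts in that library and 10.5 to 37.1 in the narrow DE libraries, against 19.8 to 148 in Air Control. On the TMM scale it had 76.8, 146 and 273 CPM in DE (lowest, median and highest), against 15.5, 28.1 and 37.7 in Air Control, so all 7 DE libraries lay above all 6 Air Control libraries on that scale and did not on the other. Over all libraries its log2 fold change of DE over Air Control was 2.71 ± 0.45 with TMM (SE, edgeR adjusted p = 0.00223) and 1.00 ± 1.16 with library totals (edgeR adjusted p = 0.446). It was also called with the depth covariate, at 2.58 ± 0.50 (edgeR adjusted p = 0.0254). Over the alternatives run, the adjusted p ran from 4.53e-12 to 0.570. Fitted on the broad libraries alone, it rose by 3.12 ± 0.52 on the log2 scale (SE; edgeR, adjusted p = 0.0325), where 0.0555% of 45063 tested transcripts were called higher. That fit has a single DE seedling, whose spread is taken to be that of the other groups.

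DECe against Air Control asks the same of the cerium fuel exhaust. With TMM, 1 of 180 members was called higher and 0 lower, beside 0.0705% of all tested transcripts called higher and 0.0817% lower by edgeR. That member was again psme_t010217, with 21.6, 183 and 591 CPM of all counts in DECe (lowest, median and highest) and 19.8, 61.5 and 148 in Air Control. On the TMM scale it had 34.7, 111 and 237 CPM in DECe and 15.5, 28.1 and 37.7 in Air Control, and the ranges overlapped slightly. The log2 fold change came to 2.24 ± 0.44 with TMM (SE, edgeR adjusted p = 0.0352), and 1.53 ± 1.18 with library totals (edgeR adjusted p = 1). In the 4 broad DECe libraries it ran from 122 to 591 CPM, and the fit on broad libraries gave 1.77 ± 0.38 (edgeR adjusted p = 0.0750). The call was lost when Air Control replicate 5, 8, 11 or 14 was left out, and its adjusted p ran from 5.91e-06 to 1 over the alternatives run.

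Over all members, the median log2 fold change of DECe against Air Control was 0.63 with TMM and -0.27 with library totals, beside -0.08 and -0.42 over all tested transcripts. With library totals, 4 members were called higher, where edgeR called 2.08% of all tested transcripts higher, and all 4 were among the 6 short members described in DE. psme_t144984 had a log2 fold change of 7.81 and psme_t155540 of 7.26 on that scaling. Their 4 broad DECe values, up to 74.5 and 79.2 CPM, lay within or above the Air Control range, and the 3 narrow ones were at 922 CPM or more. The DECe and DE comparisons share the Air Control libraries.

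DECe Gas Phase against Air Control asks about cerium fuel exhaust without its particles. With TMM no member passed an adjusted p under 0.05 in edgeR, beside 0.0594% of all tested transcripts. At an unadjusted p under 0.05, 21 members (11.7%) passed, beside 7.19% of all tested transcripts. DESeq2, run without the count filter, called 13 members (7.22%), beside 0.642% of 93308 transcripts. The smallest p-values belonged to psme_t010217 and psme_t155540, neither past the threshold. psme_t010217 had 16.5 to 296 CPM of all counts in DECe Gas Phase, against 19.8 to 148 in Air Control. That is a log2 fold change of 1.55 ± 0.44 with TMM (SE, edgeR, adjusted p = 0.204). The 4 broad DECe Gas Phase libraries held 189 to 296 CPM of it, all above the highest Air Control library. The fit on broad libraries gave 1.56 ± 0.37, not past the threshold (edgeR adjusted p = 0.123). psme_t155540 had 1.805, 17.8 and 1465 CPM in DECe Gas Phase and a log2 fold change of 8.84 ± 2.79 with TMM (edgeR adjusted p = 0.303). Over its alternatives the adjusted p of psme_t010217 here ran from 0.0103 to 1 and that of psme_t155540 from 1.76e-05 to 1. With library totals the log2 fold change of psme_t155540 was 6.12 ± 1.43 (edgeR adjusted p = 0.0114), and 3 members were called higher where edgeR called 1.05% of all tested transcripts higher.

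DECe against DE asks what the cerium additive changed in whole exhaust. With TMM, 0 members were called higher and 3 lower in DECe, beside 0.1% of all tested transcripts in each direction in edgeR. The members' median log2 fold change was -1.45 with TMM, against 0.40 over all tested transcripts, and 0.79 with library totals, against 1.56. With library totals no member was called in edgeR, beside 0.349% of all tested transcripts, and 11 members (6.11%) passed an unadjusted p under 0.05, beside 16.5%. psme_t035379 (1306 nt) had 1.42, 2.90 and 13.8 TMM-scaled CPM in DECe (lowest, median and highest) and 2.07, 22.9 and 91.6 in DE. Relative to DE it fell by 3.13 ± 0.65 on the log2 scale with TMM (SE, edgeR adjusted p = 0.0402). With library totals its log2 fold change was 0.08 ± 1.24 (edgeR adjusted p = 0.961). Membership required 10 counts, which stood for up to 24.0 TMM-scaled CPM in a DE library and 9.18 in a DECe library. To be a member, psme_t035379 therefore had to exceed its highest DECe value in at least 1 DE library on that scale. psme_t002007 (4658 nt) had 11.6, 23.6 and 62.8 TMM-scaled CPM in DECe and 22.5, 127 and 268 in DE. Its log2 fold change was -2.19 ± 0.50 with TMM (edgeR adjusted p = 0.0491) and 0.47 ± 1.15 with library totals (edgeR adjusted p = 0.740). Over the alternatives run, the adjusted p of psme_t035379 ran from 1.24e-06 to 0.973 and that of psme_t002007 from 3.83e-06 to 0.748. Leaving out 1 library moved the number called from 3 to 34 without DE replicate 5 (1.64% of all tested transcripts) and 28 without DE replicate 12 (1.29%). It became 23 without DECe replicate 5 (0.751%) and 11 without DECe replicate 10 (0.565%), and 0 or 1 without any of the other 10 (0 to 0.169%).

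Both DECe and DE had narrow libraries, so they could be set side by side within that class, with 3 DECe and 6 DE seedlings. There edgeR called 0 of 180 members and 0% of 8905 tested transcripts, with 9 members (5%) and 6.46% of tested transcripts at an unadjusted p under 0.05. The median log2 fold change was -0.98 over the members and 0.47 over all tested transcripts. The summed share of the 6 short members was 0.640 to 1.23% in narrow DECe libraries and 0.853 to 1.22% in narrow DE libraries, which overlap. psme_t144984 had 2373 to 7193 CPM in narrow DECe libraries and 2010 to 7624 in narrow DE libraries. psme_t035379 had 2.52 to 2.96 CPM of all counts in narrow DECe libraries and 4.05 to 7.37 in narrow DE libraries, which did not overlap, with a log2 fold change of -2.39 ± 0.99 (edgeR adjusted p = 0.719). Its counts there were 10 to 17 in DECe and 10 to 63 in DE, close to the membership minimum of 10. It was also named for its difference between DECe and DE. In the fit on the broad libraries alone, which holds 1 DE library, no member was called by edgeR, beside 0.00222% of all tested transcripts, and 31 members (17.2%) passed an unadjusted p under 0.05, beside 8.1%.

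DECe against DECe Gas Phase asks what the exhaust particles added. No member passed an adjusted p under 0.05 with TMM, beside 0% of all tested transcripts in edgeR, 5 members (2.78%) passed an unadjusted p under 0.05, beside 4.26% of all tested transcripts, and DESeq2 called 0. The smallest p-values belonged to psme_t000491 (6733 nt), with a log2 fold change of 1.70 ± 0.68, and psme_t003309 (4072 nt), with 0.95 ± 0.43 (SE, edgeR adjusted p = 0.9999 for both). psme_t000491 had 11.8, 23.1 and 45.2 CPM of all counts in DECe (lowest, median and highest) and 4.88, 12.2 and 46.0 in DECe Gas Phase. psme_t003309 had 11.9, 72.4 and 232 CPM of all counts in DECe and 12.3, 59.5 and 179 in DECe Gas Phase. Both pairs of ranges overlapped. The members' median log2 fold change was 0.33 with TMM and 0.10 with library totals. psme_t010217, called in DECe against Air Control, had a log2 fold change of 0.22 ± 0.42 between broad DECe and broad DECe Gas Phase libraries (edgeR adjusted p = 0.983).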

How the data were processed

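The deposited table of raw counts, per the file headers, gave whole-number counts for 173882 transcripts in 26 libraries. The deposited RPKM table, per the file headers, gave reads per kilobase and per 1000000 counts, and was used for transcript lengths (counts divided by RPKM). CASAVA 1.8.2 is the only tool in the submitters' processing notes. How reads were aligned, counted, assigned by strand or shared among near-identical transcripts, and the transcriptome used, is not given in the sources used here. Transcripts with near-identical copies are therefore uncertain. Library preparation used FastTrack MAG mRNA and PrepX kits, per the labels' protocols.

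Groups came from the source label and replicate numbers from the titles. Differences were tested mainly with edgeR 4.0.16 in R 4.3.3, using filterByExpr by group, TMM factors, a robust quasi-likelihood fit over all 26 libraries and Benjamini-Hochberg adjustment over 26942 transcripts within each comparison, and members' rows were then taken. All 180 members passed the filter. The SE is the log2 fold change divided by the square root of F. CPM of all counts is 1000000 × count / library total, and TMM-scaled CPM uses the scaled library size. The fits were run on simulated counts in which all libraries shared the same mean profile, apart from transcripts changed by known folds in DE. That simulation held no division into narrow and broad libraries, so it cannot show how the fits behave under it. Alternatives were RLE factors, library totals, member totals, no filter, a mean count of at least 50, DESeq2 1.42.0, limma-voom (limma 3.58.1), the legacy argument, a fit that is not robust, a replicate block, 2 groups only, a depth covariate, thinning, other membership limits and leaving out each library. Fits on broad or narrow libraries alone were added after the data were seen.

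The members and lists were chosen with earlier results of these data known. Transcripts were named by a rule: per comparison, up to 2 called members with the largest change in each direction (or the 2 smallest p-values where none was called), and as descriptions the 3 highest summed counts, the 2 smallest and 2 largest SDs and 2 on each side of the count minimum. psme_t010217 in DE was singled out after its values were seen. Gene lists and markers need names and were not tested, and no sequence is shown. In reading the rule, the 200 were taken after the identifier limit, and taking them over all identifiers also gave 180 members.

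Library totals ran from 2467403 to 60457187 counts, and 1 count in the shallowest, DE replicate 8, was worth 0.405 CPM of all counts. The sources mention no molecular identifiers. Libraries of a group differed by more than sampling noise over the members (chi-square of 45.7 per degree of freedom for the closest 2), so each counted as 1 replicate.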

Additional observations from a re-analysis of the deposited data

Results flagged for a closer look

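Of 64 sets of group values looked at (named members and length classes in each group), 20 held a library far from the others of its group, where chance flags about 1 in 20 independent, unselected sets. These sets share libraries and most were chosen for their values, so that rate is no benchmark for them. Of these, 10 were DE replicate 5, the broad DE library. Its short members held 0.0646% of all counts and its longer members 2.16%, where the other DE libraries held 0.970 to 1.35% and 0.229 to 0.537%. It was also the highest DE library in CPM of all counts for psme_t010217 (984), psme_t005820 (628), psme_t011378 (498), psme_t003309 (291), psme_t027751 (150.5), psme_t039877 (147), psme_t002007 (119) and psme_t000491 (61.1).

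DECe Gas Phase replicate 5, a narrow library, stood above its group in the share of short members (1.08%), in psme_t144984 (1890 CPM) and in psme_t155540 (1465 CPM). DECe Gas Phase replicate 7 stood above it in psme_t003309 (179 CPM) and psme_t000491 (46.0 CPM), and replicate 2 below it in psme_t006118 (1.98 CPM). DECe replicate 10 was high in psme_t144984 (7193 CPM) and DECe replicate 5 in psme_t007000 (45.3 CPM). DE replicate 8 was high in psme_t007000 (77.0 CPM), and Air Control replicate 14, where the 23 transcripts above 1% took 81.8% of counts, was low in psme_t027751 (41.0 CPM).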

How the results depend on the processing

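In each setting the members called are given with the share of all transcripts tested there that was called. The number tested differed between settings. It was 26942 in the main setting and with limma-voom. DESeq2 was run without the count filter, and its shares are over 93308 transcripts, with any lacking an adjusted p counted as not called. Its shares are therefore not on the same footing as the others. In DE against Air Control, 97 of 180 members (8.4% of all) became 6 with library totals (5.71%), 24 with member totals (8 higher, 16 lower; 23.1%), 1 with the depth covariate (0.115%), 1 with the broad libraries alone (0.0599%), 146 of 176 with thinned counts (25.1%), 149 with DESeq2 (3.17%) and 161 with limma-voom (43.7%). With a minimum of 20 counts 59 of 89 were called, with a minimum of 5 counts 128 of 300, and with the 200 most abundant kept 156 of 300 (93 higher, 63 lower). Other membership limits leave the fit as it is, so the share over all is that of the main setting, 8.4% here. In DECe against Air Control, 1 call (0.152%) became 4 with library totals (2.1%), 4 with member totals (2.24%), 8 when not robust (2.21%), 20 with DESeq2 (1.15%), 2 with limma-voom (3.14%), and 0 with no filter (0.0714%) and with broad libraries alone (0.126%). In DECe Gas Phase against Air Control, 0 calls became 3 with library totals (1.07%), 4 with member totals (1.49%), 13 with DESeq2 (0.642%) and 2 with limma-voom (2.06%). In DECe against DE, 3 calls (0.2%) became 5 of 300 with a minimum of 5 counts, 5 of 300 with the 200 kept, 42 with RLE (0.687%), 17 with a mean count of at least 50 (0.631%), 13 with the other legacy setting (0.386%), 60 of 176 with thinned counts (4.64%), 107 with DESeq2 (0.936%) and 148 with limma-voom (34.6%). They became 0 with library totals, member totals, no filter, the fit that is not robust, the depth covariate, 2 groups only, and the broad or the narrow libraries alone (0 to 1.38%). DECe against DECe Gas Phase had 0 calls in every alternative run. The cause of these changes was not tested.

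Leaving out each library in turn gave 75 to 113 calls in DE against Air Control (5.67 to 12.4% of all tested transcripts). DECe against Air Control had 0 to 1 (0.00747 to 0.214%), with 0 without Air Control replicate 5, 8, 11 or 14. DECe Gas Phase against Air Control had 0 to 0 (0.00377 to 0.271%). DECe against DE had 0 to 34 (0 to 1.64%), with 34 without DE replicate 5. DECe against DECe Gas Phase had 0 to 0 (0 to 0.0157%).

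The direction of single members reversed in these cases. With the broad libraries alone the log2 fold change of DE over Air Control was -3.13 for psme_t144984 and -3.91 for psme_t155540. In DECe against DE, psme_t035379 had 0.0754 with library totals and 0.14 with the broad libraries alone, and psme_t002007 had 0.47 with library totals and 0.39 with member totals. Of 18 same-numbered pairs of libraries, 4 correlated above 0.1 over the members, after group means were taken off (r from -0.913 to 0.819). Library class was left in these values, so they cannot show whether the replicate numbers pair the samples. With the replicate block, calls were 23 in DE against Air Control (0.809% of all), 0 in DECe against Air Control (0.0705%) and 8 in DECe against DE (0.278%). Depth limits the narrow libraries most, since 10 counts there stood for up to 24.0 TMM-scaled CPM.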

Other observations

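psme_t007000 (3200 nt), among the steadiest members in CPM of all counts, had 13.997, 30.9 and 77.0 CPM in DE (lowest, median and highest), 15.6, 22.8 and 45.3 in DECe, 11.4, 19.9 and 37.3 in DECe Gas Phase, and 10.3, 30.4 and 41.0 in Air Control, and all ranges overlapped. On the TMM scale the same transcript had medians of 194 CPM in DE, 6.53 in DECe, 7.26 in DECe Gas Phase and 8.45 in Air Control. psme_t039877 (1174 nt) had medians of 4.05 CPM of all counts in DE, 361 in DECe, 426 in DECe Gas Phase and 314 in Air Control, and on the TMM scale 34.9, 131, 139 and 89.6 CPM in the same groups. A library's highest or lowest standing also differed: of the 180 members, 36 had their highest CPM of all counts in DE replicate 5, and 43 had their lowest in DE replicate 4.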
